A study of Mus musculus with 4 samples.

Results

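The genes described here are 8 transcription regulators that T cells induce when the T cell receptor is engaged: the NR4A nuclear receptor genes Nr4a1, Nr4a2 and Nr4a3, the early growth response genes Egr1, Egr2 and Egr3, the EGR corepressor gene Nab2, and the interferon regulatory factor gene Irf4. They were taken by symbol from a table of 54532 mouse genes, by a rule that uses no measured value though it was written with earlier results of these data known, and all 8 were found and passed the filter on low counts. RNA of mouse primary T cells was sequenced from cells treated with PTC (n = 2) and from cells labelled Control (n = 2), all at 12 h. Cells of both groups were grown with serum, antibiotics, the T cell growth cytokine IL2, and beads carrying antibodies to CD3 and CD28, so the receptor and its CD28 co-receptor were being stimulated in both groups alike and no unstimulated sample was analysed here. The labels give no meaning or dose for PTC, no strain, age or tissue of origin for the mice, and leave it unsaid whether each library is a culture or animal of its own. The p-values therefore cover the spread among these 4 libraries alone, and that spread may be technical.

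Receptor engagement raises calcium, which activates calcineurin and the NFAT factors, and drives MAP kinase and protein kinase C signalling to SRF, CREB and MEF2 factors. The NR4A and EGR genes are immediate early or early targets of these routes, and Irf4 is induced in proportion to receptor signal strength, so their transcripts are widely used as readouts of that signal. NR4A proteins bind DNA without a known natural ligand that switches them, EGR proteins bind GC-rich sites through zinc fingers, and NAB2, itself an EGR target, binds EGR proteins and holds back their activity.

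With PTC, none of the 8 genes passed the test over all genes. Egr3 and Egr2, factors tied both to T cell expansion and to its restraint, had the largest log2 fold changes of the 8, 0.37 and 0.34: Egr3 averaged 97.47 ± 0.329 CPM (counts scaled to library size) in PTC cells and 75.4 ± 13.7 CPM in Control cells, and Egr2 averaged 36.9 ± 2.69 CPM in PTC cells and 29.1 ± 4.59 CPM in Control cells (SD, n = 2 each). The most abundant member, Nr4a1, lay at nearly the same level in both groups, with 179 ± 4.22 CPM in PTC cells and 189 ± 7.27 CPM in Control cells (SD, n = 2 each). Irf4 averaged 127 ± 13.5 CPM in PTC cells and 121 ± 7.07 CPM in Control cells (SD, n = 2 each).

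Genes were tested by quasi-likelihood in edgeR, p-values were adjusted by the Benjamini-Hochberg method over all genes, and a gene was called at an adjusted p under 0.05. Of 13884 genes tested 188, or 1.35%, were called, 82 higher and 106 lower with PTC (127 higher and 95 lower by DESeq2), and 0 of the 8 members. Limma-voom and DESeq2 also called 0 of the 8, DESeq2 giving Nr4a2 no adjusted p. At an unadjusted p under 0.05 stood 3 members, Egr3, Egr2 and Nab2, where the share over all genes was 12.9%. Of the 8 fold changes (PTC over Control) 6 were positive and 2 negative, with a median log2 fold change of 0.08 beside a median of -0.003 for all genes tested. The PTC libraries lay apart from the Control libraries for 4 members, 3 of them higher with PTC; over all genes tested 43.6% lay apart in either direction and 21.3% with PTC higher.

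Library totals ran from 15458818 to 16639911 counts, and each member had between 175 and 3096 counts in each library. A count of 0 would have allowed up to 3 counts, 0.184 to 0.195 CPM, a limit that covers counting error alone, and no member came near it. All 13 T cell markers were present and summed to 7347 and 7504 CPM in PTC cells and 6849 and 6595 CPM in Control cells. All 13 log2 fold changes were positive, with a median of 0.15, above the 0.08 of the members. None was called by edgeR (limma-voom called 0 and DESeq2 1). At an unadjusted edgeR p under 0.05 stood 7 of the 13, beside 12.9% of all genes. Cells of other kinds that can also transcribe EGR, NR4A and IRF4 genes left traces. The 12 myeloid markers summed to 1475 and 1299 CPM in PTC cells and 1045 and 1056 CPM in Control cells, mostly through Lyz2, and none was at 0. The sum does not stand for the list: only 4 of the 12 log2 fold changes were positive, with a median of -0.17. At an unadjusted edgeR p under 0.05 stood 8 of the 12, of which 3 were higher with PTC. In this list Lyz2 and S100a8 rose and Mpo, Elane and Cd14 fell (edgeR), with log2 fold changes of 0.53, 0.69, -1.70, -2.36 and -0.80. The calls of Lyz2 and S100a8 were lost without PTC 1 (0.43 and 0.62) and that of Cd14 without Control 1 (-0.60). DESeq2 gave S100a8, Elane and Cd14 no adjusted p, and without independent filtering it did not call S100a8 and Cd14 (adjusted p = 0.0627 and 0.0505). The fold change of Elane was -1.83 without PTC 1 and -3.23 without PTC 2. The 10 B cell markers summed to 559 and 571 CPM in PTC cells and 533 and 527 CPM in Control cells, with the defining marker Ms4a1 at 7 to 15 counts a library, and Igkc rose by 0.77 on the log2 scale (edgeR adjusted p = 0.0032). The 8 dendritic cell markers summed to 54.1 and 56.9 CPM in PTC cells and 55.6 and 52.1 CPM in Control cells, with Siglech and Cd209a at 0. Most of that sum was Batf3, which is also among the IRF4 partners, at 35.3 and 35.3 CPM in PTC cells and 31.1 and 29.9 CPM in Control cells. The marker Itgax stood at 14.2 and 15.5 CPM in PTC cells and 18.8 and 17.1 CPM in Control cells (edgeR adjusted p = 0.414). The part of these cells in the members' values was not tested, and in bulk RNA fewer cells of a type cannot be told apart from less RNA per cell.

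The short stretches before the start sites of 4 members are shown because they carry letters known as docking sites of the factors that receptor signalling activates. They are from the RefSeq promoter table for GRCm38.p6, which gives windows from 250 bases before to 50 bases after a start and held 6 of the 8 members. Capitals mark TGACG, or CGTCA on the other strand, the core of the cAMP response element to which CREB family factors bind, and the CArG box, to which SRF binds.
Nr4a1, chr15:101266746-101266845, plus strand: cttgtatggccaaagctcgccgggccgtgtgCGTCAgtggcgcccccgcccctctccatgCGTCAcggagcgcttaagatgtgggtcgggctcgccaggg
Nr4a2, chr2:57124104-57124213, minus strand: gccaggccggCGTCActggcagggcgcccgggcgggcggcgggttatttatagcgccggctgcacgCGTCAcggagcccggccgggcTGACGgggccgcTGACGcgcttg
Nr4a3, chr4:48045065-48045150, plus strand: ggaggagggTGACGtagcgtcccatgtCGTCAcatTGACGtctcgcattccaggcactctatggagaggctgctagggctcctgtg
Egr2, chr10:67537749-67537868, plus strand: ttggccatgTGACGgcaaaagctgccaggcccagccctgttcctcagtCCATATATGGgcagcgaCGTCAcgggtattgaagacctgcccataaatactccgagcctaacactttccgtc

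Each of the 3 NR4A windows held 4 cores, of which the printed stretches show 2 (Nr4a1), 4 (Nr4a2) and 3 (Nr4a3), a number that 0.231% of the 32851 windows in the table reached or passed, whereas 20.8% held at least 1. The table gives Egr2 5 windows, for different starts. The one printed from held 2 cores and a CArG box that begins at position -72 from its start, and 2 windows that overlap it held the same letters. Another window held a different CArG box and no core, and the last held neither. Of all windows, 1.63% held a CArG box. The Nab2 and Irf4 windows held neither. The search covered both strands. The full element TGACGTCA (in 1.79% of windows), the AP-1 site TGANTCA (7.81%), the NR4A monomer site AAAGGTCA (1.51%) and GGAA followed after 2 bases by GAAA, a joint site of ETS factors and IRF4 (2.72%), were in none of the 6. The EGR site GCGNGGGCG (5.55%) was in the windows of Nr4a1 and Nr4a2, and an NF-kB site (4.51%) in that of Nr4a1. The core and the count of 4 were added to the search after the windows had been seen. A match is a string of letters and does not show binding.

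The NR4A genes encode the orphan receptors NUR77, NURR1 and NOR1. Nr4a1 (ENSMUSG00000023034, chromosome 15, 101254269 to 101274795, plus strand, GRCm38, like all spans below) stood at 176 and 182 CPM in the PTC libraries and at 184 and 195 CPM in the Control libraries. Both PTC libraries were below both Control libraries, by a margin smaller than the gap between the Control libraries. The log2 fold change, -0.08, had a standard error of 0.07 and a 95% interval from -0.24 to 0.07 (edgeR adjusted p = 0.686), so a fall below 0.846 of Control or a rise above 1.05-fold lay outside the interval.

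Nr4a2 (ENSMUSG00000026826, chromosome 2, 57106830 to 57124003, minus strand) stood at 13.4 and 12.9 CPM with PTC, against 11.2 and 14.02 CPM in Control cells. The PTC values lay between the Control values. The log2 fold change was 0.06, with an interval from -0.26 to 0.39 (edgeR adjusted p = 0.914), the widest of the 8, on 175 to 223 counts a library. Nr4a3 (ENSMUSG00000028341, chromosome 4, 48045153 to 48086447, plus strand) stood at 46.9 and 44.1 CPM with PTC, against 39.4 and 52.0 CPM in Control cells, and again the PTC values lay between the Control values. Its log2 fold change was -0.0068 (edgeR adjusted p = 0.989), and its direction depended on the library left out: it was -0.19 without Control 1, 0.21 without Control 2 and 0.04 without PTC 2. Nr4a2 turned to -0.08 without Control 1.

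**Figure D1:**
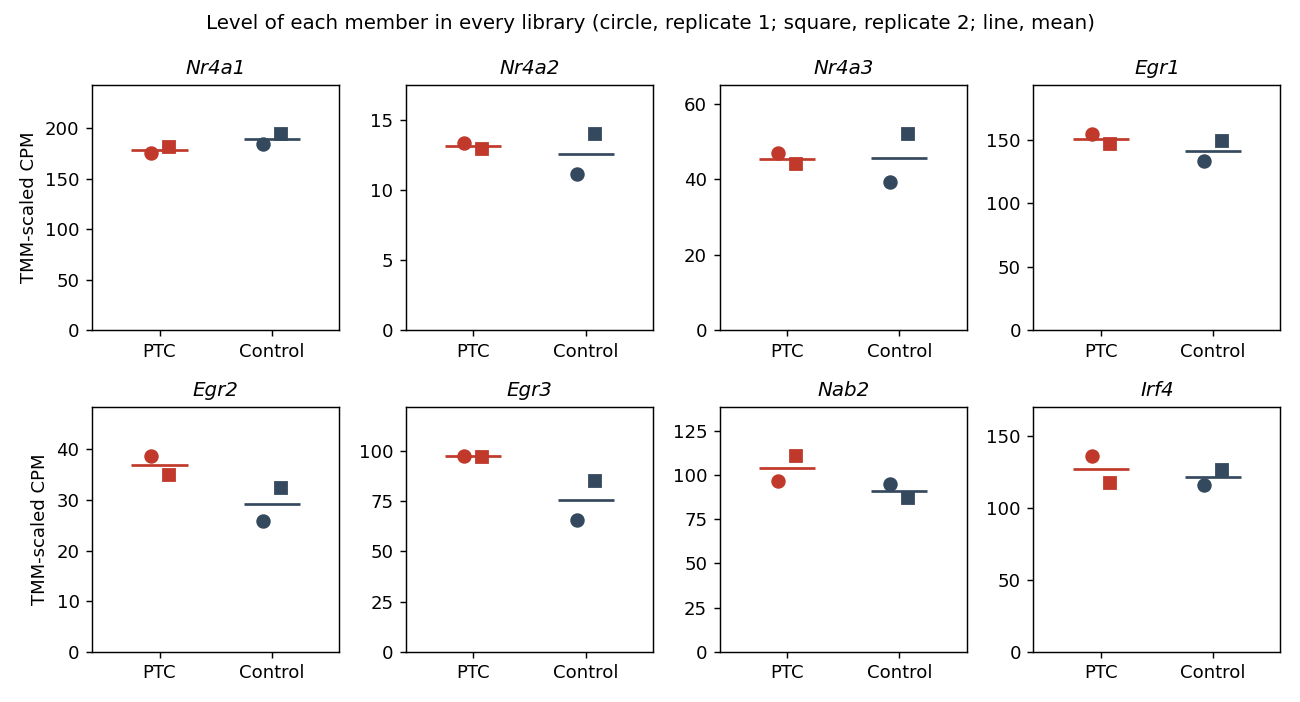
TMM-scaled CPM (vertical axis, from 0) of each of the 8 genes in the 2 PTC and 2 Control libraries, with circles for replicate 1, squares for replicate 2 and lines for group means. Egr2 and Egr3 have both PTC libraries above both Control libraries, with Control 1 the lowest, while the Nr4a2 and Nr4a3 values of PTC cells lie between those of the Control cells.

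Per kilobase of gene length, which allows levels of different genes to be set side by side, Nr4a1 took most of the NR4A transcript sum. Its share was 81.8% and 83.1% in the PTC libraries and 84.9% and 82.0% in the Control libraries, so the groups overlapped. Nr4a3 made up 12.8% and 11.8% with PTC, against 10.6% and 12.9% in Control cells. Nr4a2 made up 5.395% and 5.12% with PTC, against 4.45% and 5.11% in Control cells, with the lower PTC share just above the higher Control share. The summed NR4A level was 61.2 and 62.3 CPM per kilobase in PTC cells and 61.9 and 67.6 CPM per kilobase in Control cells.

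Egr1 (ENSMUSG00000038418, chromosome 18, 34859823 to 34864984, plus strand), the family member that responds fastest to MAP kinase signalling, stood at 155 and 147 CPM with PTC, against 134 and 149 CPM in Control cells. The groups overlapped, with Control 1 alone below the rest. With an interval from -0.07 to 0.26, its log2 fold change was 0.09 (edgeR adjusted p = 0.669).

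Egr2 (ENSMUSG00000037868, chromosome 10, 67535475 to 67542188, plus strand), which is induced through NFAT and takes part in T cell anergy as well as in clonal expansion, stood at 38.8 and 35.0 CPM with PTC, against 25.9 and 32.4 CPM in Control cells. Both PTC libraries were above both Control libraries, and the Control libraries differed from each other more than PTC 2 differed from Control 2. The log2 fold change of 0.34 had a standard error of 0.12, an interval from 0.09 to 0.59, an unadjusted p of 0.0106 and an edgeR adjusted p of 0.206.

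Egr3 (ENSMUSG00000033730, chromosome 14, 70077203 to 70082614, plus strand), a close relative of Egr2 that overlaps with it in function, had 1502 and 1585 counts with PTC, against 1029 and 1354 counts in Control cells. Scaled, these were 97.7 and 97.2 CPM with PTC, against 65.7 and 85.1 CPM in Control cells. The PTC libraries nearly coincided, and the Control libraries lay below them and far apart. The log2 fold change of 0.37 had a standard error of 0.10 and an interval from 0.16 to 0.58, which is 1.29-fold with bounds of 1.12 and 1.49. The unadjusted p was 0.0014, the 264th smallest of the 13884, and the edgeR adjusted p was 0.0734. Egr3 passed without a filter on low counts (adjusted p = 0.0035), with the replicate number as a block (0.0221) and without Control 2 (0.00056), where the log2 fold change was 0.57; without Control 1 it was 0.20 (adjusted p = 0.212). Egr2 passed only without Control 2 among the 11 alternatives tried, with a log2 fold change of 0.51 (adjusted p = 0.0367), and had 0.20 without Control 1.

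**Figure D2:**
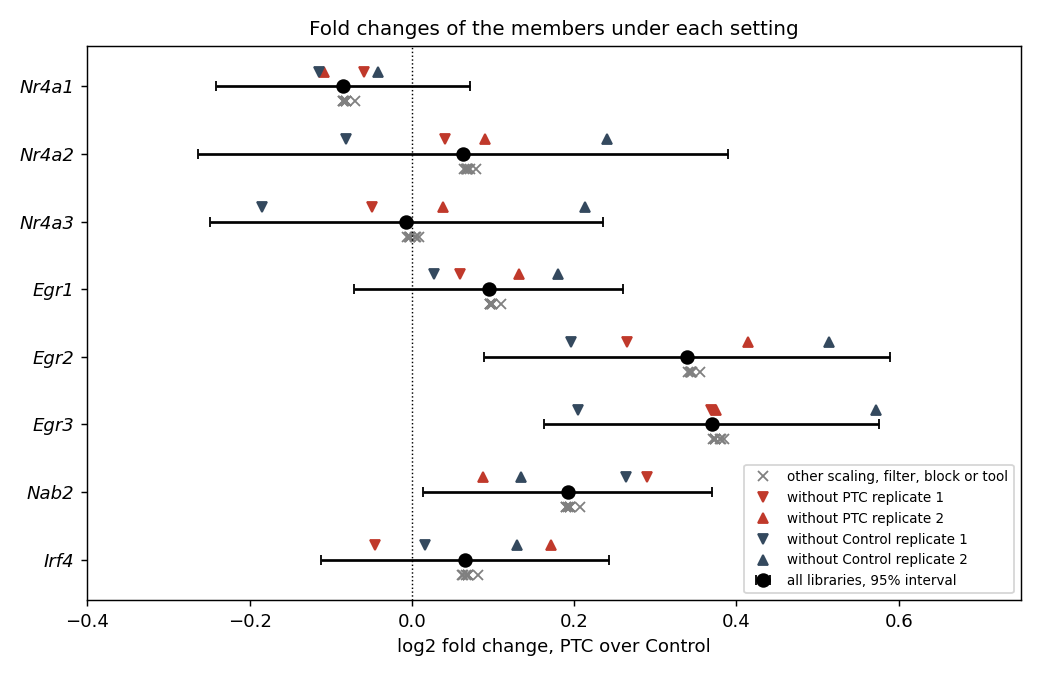
Log2 fold change, PTC over Control (horizontal axis), of each gene with all 4 libraries (black, with its 95% interval from edgeR), with each library left out in turn (triangles) and under other scalings, filters, a block or tools (crosses). The intervals of Egr2, Egr3 and Nab2 lie above 0 before adjustment for the number of genes, and leaving out Control 1 or Control 2 moves Egr2 and Egr3 further than any change of scaling or tool.

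Within the EGR family, the share of Egr1 in the summed CPM per kilobase was 50.7% and 50.3% in PTC cells, against 56.9% and 53.5% in Control cells. Egr3 held 32.6% and 33.9% with PTC, against 28.5% and 31.1% in Control cells, and Egr2 held 16.8% and 15.8% with PTC, against 14.6% and 15.3% in Control cells. The shares depend on one another, and the level of Egr1 itself was not lower with PTC, at 151 CPM in PTC cells and 141 CPM in Control cells on average. They were not tested. The summed level was 68.1 and 65.2 CPM per kilobase in PTC cells and 52.3 and 62.1 CPM per kilobase in Control cells.

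Nab2 (ENSMUSG00000025402, chromosome 10, 127660918 to 127668568, minus strand) stood at 96.6 and 111 CPM with PTC, against 94.9 and 87.0 CPM in Control cells. PTC 2 was high and PTC 1 lay just above Control 1. Its log2 fold change was 0.19, with an interval from 0.01 to 0.37, an unadjusted p of 0.0366 and an edgeR adjusted p of 0.341. It was 0.09 without PTC 2 and 0.29 without PTC 1, and remained short of the threshold under every alternative.

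Counts of Nab2 are less certain than those of the other members, since 35.7% of its 2941 exon bases in GENCODE M21 also belong to exons of Gm16229, a noncoding gene on the opposite strand. A further 151 bases are shared with Nemp1, which encodes a nuclear envelope protein, and 40 with Stat6, which encodes a factor of IL4 signalling, both on the opposite strand. Gm16229 had 0 counts in every library. Nemp1 stood at 67.2 and 64.2 CPM with PTC, against 65.7 and 73.5 CPM in Control cells, and Stat6 at 241 and 241 CPM with PTC, against 244 and 246 CPM in Control cells, with log2 fold changes of -0.08 and -0.02 that were not called by edgeR (adjusted p = 0.744 and 0.938). The sources used here do not say whether reads were counted by strand. No other member overlapped a gene of the table. At most 0.159% of the 50-base words in the longest transcript of each other member occurred in transcripts of another gene, compared with 31.0% for Nab2.

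Irf4 (ENSMUSG00000021356, chromosome 13, 30749226 to 30766976, plus strand), whose product works with BATF to sustain effector T cells, stood at 137 and 118 CPM with PTC, against 116 and 126 CPM in Control cells. PTC 1 was the highest and the groups overlapped. For Irf4 the log2 fold change was 0.07, with an interval from -0.11 to 0.24 (edgeR adjusted p = 0.806), and turned to -0.04 without PTC 1.

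**Figure D3:**
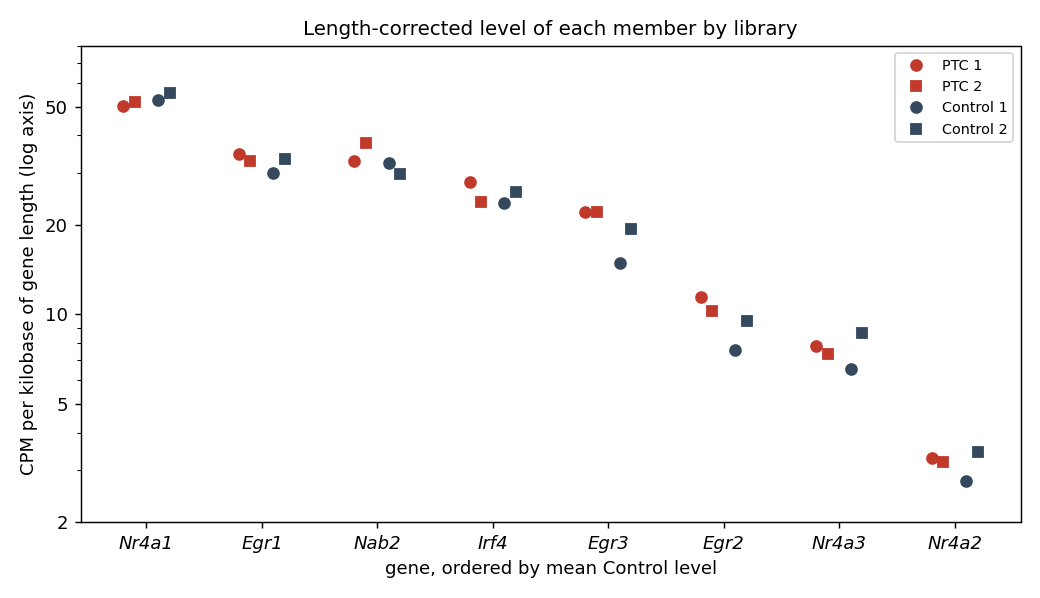
Length-corrected level (CPM per kilobase, log axis) of each gene in every library, PTC left of Control, with genes ordered by their mean Control level. Nr4a1 is highest and Nr4a2 lowest in all 4 libraries, and Egr1 and Nab2 exchange places between libraries.

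The order of levels per kilobase was the same in all 4 libraries except for Egr1 and Nab2. Nr4a1 led at 50.9 ± 1.20 CPM per kilobase with PTC and 54.0 ± 2.07 CPM per kilobase in Control cells. Nab2 (35.3 ± 3.49 with PTC and 30.9 ± 1.88 in Control cells) and Egr1 (33.7 ± 1.21 with PTC and 31.5 ± 2.43 in Control cells) followed within each other's spread (SD, n = 2 each). Irf4 came next at 25.9 ± 2.75 with PTC and 24.8 ± 1.44 in Control cells, and Egr3 at 22.1 ± 0.0747 with PTC and 17.1 ± 3.11 in Control cells. In PTC cells the 2 genes lay closer together than in Control cells. Egr2 averaged 10.9 with PTC and 8.57 in Control cells, Nr4a3 7.60 with PTC and 7.63 in Control cells, and in Control cells these 2 differed by less than their SDs of 1.35 and 1.499. Nr4a2 closed the order at 3.25 with PTC and 3.10 in Control cells. The length of Nab2 includes the exon bases it shares with Gm16229.

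The Control libraries lay further apart than the PTC libraries for most of the inducible genes. Control 2 was above Control 1 in 7 of the 8 members, Nab2 being the exception, by 0.33 (Nr4a2), 0.40 (Nr4a3), 0.32 (Egr2) and 0.37 (Egr3) on the log2 scale. These 4 gaps were larger than those of 91.4% to 95.8% of the 9746 tested genes averaging 100 counts or more, whose median absolute gap was 0.12 between the Control libraries and 0.09 between the PTC libraries. Between the PTC libraries no member had a gap above that of 84.9% of these genes. In 5 members the Control libraries were further apart than the 2 group means. The share of all genes in which this held is not given here.

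Among tested genes averaging 100 counts or more, those with the profile most like that of Egr3 over the 4 libraries, by Euclidean distance of centred log2 CPM, were Enpp4 (0.04), a membrane hydrolase gene, Sgk1 (0.06), a kinase gene, and Ska2 (0.06), which encodes a subunit of a kinetochore complex. Their log2 fold changes of 0.35, 0.37 and 0.33 were not called by edgeR (adjusted p = 0.355, 0.245 and 0.325). With 4 libraries such a likeness is a description alone.

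Relatives and partners of the members were read from a list of 13 genes, of which 12 were tested. None was called by edgeR (limma-voom called 0 and DESeq2 1, leaving 3 without an adjusted p, and 2 had an unadjusted p under 0.05), and their median log2 fold change was 0.09. Egr4, the remaining EGR gene, had 9 and 18 counts with PTC, against 18 and 11 counts in Control cells. Nab1, the other NAB corepressor gene, stood at 50.9 and 55.1 CPM with PTC, against 55.2 and 61.7 CPM in Control cells (log2 fold change -0.14, edgeR adjusted p = 0.565), so its sign was opposite to that of Nab2. Of the RXR genes, whose products pair with NUR77 and NURR1, Rxra stood at 34.9 and 40.4 CPM with PTC, against 28.7 and 26.4 CPM in Control cells (log2 fold change 0.45, edgeR adjusted p = 0.0526), Rxrb had a log2 fold change of -0.16 and Rxrg was at 0 in every library. Irf8, the closest relative of Irf4, stood at 183 and 179 CPM with PTC, against 156 and 143 CPM in Control cells (log2 fold change 0.28, edgeR adjusted p = 0.0818); it was the gene that DESeq2 called (adjusted p = 0.0324). Irf8 is also abundant in myeloid and B cells, whose summed markers are given above.

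Upstream of the members, none of 17 tested genes of the SRF, MEF2 and CREB group was called by edgeR (limma-voom called 0 and DESeq2 0, leaving 5 without an adjusted p, and 3 had an unadjusted p under 0.05), with a median of -0.06. Srf itself stood at 112 and 110 CPM with PTC, against 108 and 106 CPM in Control cells. The 3 genes with an unadjusted p under 0.05 were Elk1, Elk4 and Hdac5. Their log2 fold changes were 0.47, 0.20 and -0.18 (edgeR adjusted p = 0.126, 0.308 and 0.326). None of 18 tested calcineurin and NFAT genes was called by edgeR either (limma-voom called 1 and DESeq2 2, leaving 1 without an adjusted p, and 2 had an unadjusted p under 0.05), and their median was -0.01. Nfatc1, the NFAT gene that receptor signalling itself induces, stood at 244 and 234 CPM with PTC, against 221 and 234 CPM in Control cells (edgeR adjusted p = 0.750). Rcan1, a calcineurin feedback inhibitor gene and NFAT target, stood at 18.1 and 21.7 CPM with PTC, against 22.2 and 21.3 CPM in Control cells (edgeR adjusted p = 0.736). The calmodulin gene Calm3 was called by both other tools, with an edgeR log2 fold change of 0.29 and an edgeR adjusted p of 0.0654.

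Among 17 genes that report receptor signal strength, 1 fell and none rose in the edgeR test, which called 1.35% of all genes. At an unadjusted edgeR p under 0.05 stood 4 of the 17, of which 3 were higher with PTC, beside 12.9% of all genes. The gene that fell was Slc7a5, a leucine transporter gene that is also a target of the amino acid stress response. It stood at 633 and 657 CPM with PTC, against 816 and 837 CPM in Control cells (log2 fold change -0.36, standard error 0.07, edgeR adjusted p = 0.0182). The call was lost without PTC 1 and without PTC 2, where the fold change was -0.33 and -0.38. Il2ra, the high-affinity IL2 receptor gene, stood at 393 and 330 CPM with PTC, against 264 and 311 CPM in Control cells (0.33, edgeR adjusted p = 0.0904). Tnfrsf9, which encodes the co-stimulatory receptor 4-1BB, stood at 362 and 370 CPM with PTC, against 323 and 261 CPM in Control cells (0.33, edgeR adjusted p = 0.0818). Both were called higher by DESeq2 (adjusted p = 0.0212 for Il2ra and 0.0187 for Tnfrsf9), and 3 genes of the list were called higher by edgeR without a filter on low counts. Icos, also higher at an unadjusted p under 0.05, stood at 130 and 123 CPM with PTC. In Control cells it stood at 98.7 and 109 CPM (0.28, edgeR adjusted p = 0.0936). The early activation gene Cd69 (log2 fold change -0.10), Cd5 (0.05), whose level tracks receptor signal, and Myc (-0.03) lay near 0, each with overlapping groups. The median of the list was 0.05, and 11 of 17 were positive.

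Among 18 EGR targets and anergy genes, 2 rose and none fell in the edgeR test, which called 1.35% of all genes. At an unadjusted p under 0.05 stood 5 of the 18, all higher with PTC, beside 12.9% of all genes. The list was written with earlier results of these data known, so these counts do not test it. Socs1, a feedback inhibitor of cytokine signalling, stood at 176 and 171 CPM with PTC, against 136 and 133.5 CPM in Control cells (log2 fold change 0.37, standard error 0.07, edgeR adjusted p = 0.0175). Id3, an inhibitor of E-protein factors that EGR proteins induce in developing T cells, stood at 99.1 and 109 CPM with PTC, against 80.8 and 81.1 CPM in Control cells (0.36, standard error 0.08, edgeR adjusted p = 0.0257). Both calls were lost without PTC 1 and without PTC 2, where the log2 fold change was 0.34 and 0.39 for Socs1 and 0.43 and 0.29 for Id3. The E3 ligase gene Cblb, a target of EGR2 and EGR3 in anergy, stood at 248 and 240 CPM with PTC, against 247 and 286 CPM in Control cells (-0.13, edgeR adjusted p = 0.555). Rnf128, which encodes the anergy ligase GRAIL, stood at 6.90 and 6.07 CPM with PTC, against 4.79 and 4.59 CPM in Control cells (0.47, edgeR adjusted p = 0.341). The median of the list was 0.03.

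Of 11 exhaustion and tolerance genes linked to NR4A factors, none was called by edgeR (limma-voom called 0 and DESeq2 0, leaving 5 without an adjusted p, and 2 had an unadjusted p under 0.05), and 3 were positive, with a median of -0.09. Pdcd1, which encodes PD-1, stood at 43.7 and 46.7 CPM with PTC, against 51.0 and 36.3 CPM in Control cells, and Tox at 17.2 and 17.4 CPM with PTC, against 17.0 and 20.4 CPM in Control cells. Foxp3, the regulatory T cell factor gene that NR4A receptors can induce, stood at 36.4 and 30.9 CPM with PTC, against 26.1 and 22.4 CPM in Control cells (log2 fold change 0.47, edgeR adjusted p = 0.0630). Tigit went the other way, at 40.4 and 41.9 CPM with PTC, against 49.96 and 51.54 CPM in Control cells. Its log2 fold change was -0.30 (edgeR adjusted p = 0.137). Foxp3 and Tigit were the 2 genes of this list with an unadjusted p under 0.05. None of 20 IRF4 partners and targets was called by edgeR (limma-voom called 0 and DESeq2 1, leaving 6 without an adjusted p, and 4 had an unadjusted p under 0.05), with a median of 0.04. Batf, the AP-1 partner gene of IRF4, stood at 56.2 and 62.9 CPM with PTC, against 60.6 and 55.7 CPM in Control cells, and Prdm1, the effector factor gene that IRF4 induces, at 8.91 and 5.77 CPM with PTC, against 7.41 and 9.30 CPM in Control cells. The DESeq2 call was Pfkl, a glycolytic enzyme gene, with an edgeR log2 fold change of 0.30 (edgeR adjusted p = 0.0766). Besides Pfkl, the genes of this list with an unadjusted p under 0.05 were Jun, Junb and Spi1. Their log2 fold changes were 0.29, -0.20 and -0.36 (edgeR adjusted p = 0.182, 0.263 and 0.175).

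**Figure D4:**
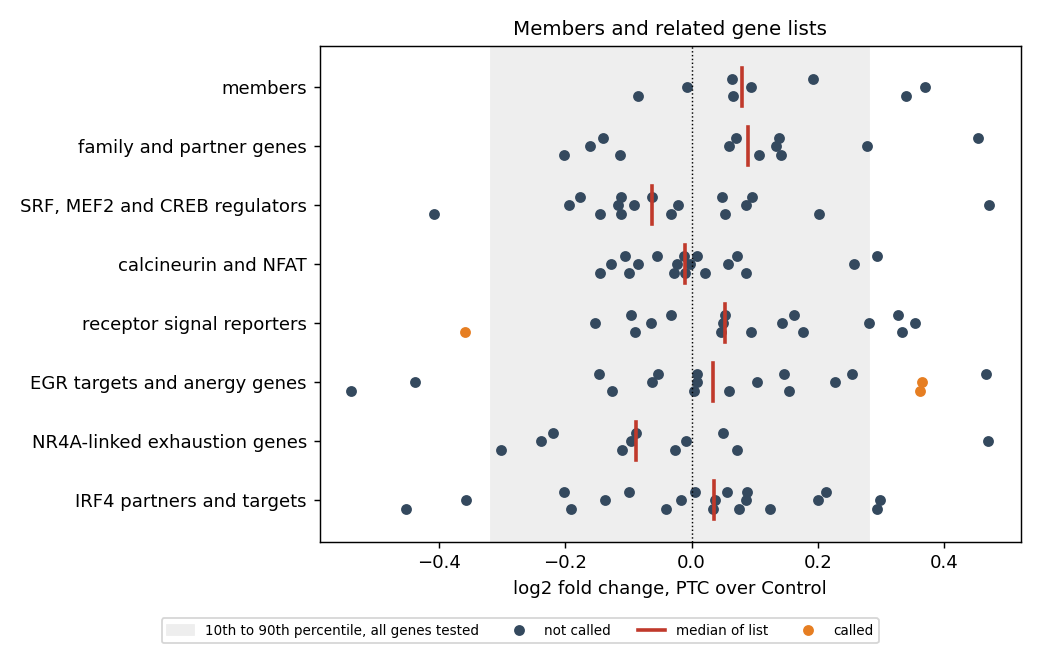
Log2 fold change, PTC over Control (horizontal axis), of each tested gene in the 8 members and in 7 related lists, with red bars for list medians and a grey band for the 10th to 90th percentile of all genes tested (-0.32 to 0.28). Egr2 and Egr3 lie above the band, and the 3 genes called by edgeR are Slc7a5 on the left and Socs1 and Id3 on the right.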

How the data were processed

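RNA-seq of 4 libraries of mouse primary T cells (2 PTC, 2 Control) was read from a table of whole-number gene counts as the authors deposited it. Per the submitters' processing notes, CASAVA 1.8, HISAT2 2.0.5 and featureCounts 1.5.0-p3 were used. Genome build, strandedness and the handling of multiply placed reads: not given in the sources used here. GENCODE M21 (GRCm38) held 54409 gene IDs of the table; 98.3% of them, and all 8 members, had the same span there. The gene length column deposited in the table was used as given. A further 2 count columns matched no sample and were not used.

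Samples were grouped by the treatment label. Genes were filtered with filterByExpr (13884 kept), scaled by TMM and tested by quasi-likelihood in edgeR 4.0.16 (R 4.3.3) on group alone, with adjustment over all genes; a call is an adjusted p under 0.05. CPM are counts over TMM-scaled library size, and intervals are 95%. Alternatives were RLE and upper-quartile scaling, no filter, a replicate block, limma-voom 3.58.1, DESeq2 1.42.0 with and without independent filtering, and each library left out. The procedure was tested on simulated counts with 50 changed genes at each fold. It recovered 26% of them at 1.3-fold, 68% at 1.5-fold, 82% at 2-fold and 94% at 4-fold, and called 6 unchanged genes. Most changes as small as those of Egr3 and Egr2 would thus be missed. No 2 libraries had counts equal within sampling noise (chi-square over degrees of freedom from 4.41 to 10.1).

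The members, gene lists, rules and tests were chosen with earlier results of these data known. Named genes were the members, genes that overlap them, up to 3 called genes of each list and the 3 genes most like the member with the smallest p. Other list genes are examples chosen after their values were seen. Some genes of the lists are not reported here by name.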

Additional observations from a re-analysis of the deposited data

How the results depend on the processing

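Of 88 values (8 members under 11 alternatives), 77 kept their direction and stayed short of the threshold, 7 turned and 4 passed. The fold change of Nr4a3 turned under upper-quartile scaling (0.0084), the replicate block (0.0036) and limma-voom (0.0056). With libraries left out in turn, log2 fold changes ran from -0.11 to -0.04 for Nr4a1, -0.08 to 0.24 for Nr4a2, -0.19 to 0.21 for Nr4a3, 0.03 to 0.18 for Egr1, 0.20 to 0.51 for Egr2, 0.20 to 0.57 for Egr3, 0.09 to 0.29 for Nab2 and -0.04 to 0.17 for Irf4. Nr4a2 turned without Control 1 (-0.081) and Irf4 without PTC 1 (-0.045). Such fits assume that the lone library varies like the other group. Egr3 passed without a filter (log2 fold change 0.37) and with the replicate block (0.38), where 1 member was called in each case, and 0 to 2 members were called with a library left out. Over all genes, 432 were called without a filter, and 76 (without PTC 1) to 422 (without Control 1) with a library left out; the cause was not tested. Over the genes tested, deviations of same-numbered libraries had a correlation of -0.05. With 2 libraries a group, this value cannot settle whether the replicate numbers pair the samples. With the block 237 genes were called. For the lists, 201 of 242 counts of called genes stayed at 0 or within 1.5 times, and 41 moved. Most list counts were 0 in the main fit, and a 0 that stayed 0 is among the 201. Members had at least 175 counts a library, and 2 libraries a group leave wide intervals.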
